A study of Mus musculus with 12 samples.

Results

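Passage from the first gap phase of the cell cycle (G1) into DNA synthesis is governed by a small set of genes, and 10 of them were followed here in mouse leukaemia cells: the D-type cyclins Ccnd1, Ccnd2 and Ccnd3, their partner kinases Cdk4 and Cdk6, the kinase inhibitors Cdkn1a, Cdkn1b, Cdkn2c and Cdkn2d, and the retinoblastoma gene Rb1. The genes were chosen by name from the cell cycle machinery, with earlier results of these data known. All 10 were found among the 24411 rows of the deposited table, and all 10 were among the 11484 genes whose mean normalised read count over the 12 libraries reached 10, the minimum for testing.

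The cells were BALB/c mouse bone marrow cells that express mutant forms of CSF3R, the receptor for granulocyte colony-stimulating factor, and CEBPA, a transcription factor of granulocyte development, from retroviral vectors. Bone marrow cells changed by a vector can hold several clones, and the labels do not say how many. They were grown in IMDM with 20% fetal bovine serum and exposed for 24 h to DMSO (the solvent), ruxolitinib at 50 nM, which blocks JAK1 and JAK2, GSK-LSD1 at 2 nM, which blocks the histone demethylase LSD1, or both drugs at these doses, called the combination below. RNA sequencing was done on 3 libraries for each of the 4 treatments, and all 12 carry both mutant genes. The labels do not say whether the 3 libraries of a treatment came from separate cultures, so p-values measure the spread between these libraries, which may be technical.

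D-type cyclins are made in response to growth factors and bind CDK4 or CDK6. The active kinases phosphorylate the RB protein, which then releases E2F transcription factors, and E2F turns on the genes of DNA synthesis and cyclin E. Inhibitors of the INK4 class, among them p18 (Cdkn2c) and p19 (Cdkn2d), bind CDK4 and CDK6 themselves, whereas the CIP/KIP inhibitors p21 (Cdkn1a) and p27 (Cdkn1b) bind complexes of cyclin and kinase. In the myeloid lineage, withdrawal from the cell cycle accompanies the last steps of granulocyte maturation. Much of the regulation of p27 and of cyclin D takes place on the protein, which RNA sequencing does not measure.

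The stretches of promoter below are shown because the members they belong to differ in the present data: Cdkn1b was higher and Ccnd3 lower in every library with GSK-LSD1, and Cdk4 had the highest level of all members. They come from RefSeq promoters of GRCm38.p6, a table that held 7 of the 10 members. Each is the coding strand, 5′ to 3′, over the 250 bases before an annotated gene start: Cdkn1b at chr6:134920151-134920400 (plus strand), Ccnd3 at chr17:47593217-47593466 (plus strand, the downstream of its 2 starts) and Cdk4 at chr10:127063285-127063534 (plus strand). Capitals mark matches to the E-box CACGTG, which MYC and its partners bind, and to the GC box GGGCGGG or its complement.
Cdkn1b: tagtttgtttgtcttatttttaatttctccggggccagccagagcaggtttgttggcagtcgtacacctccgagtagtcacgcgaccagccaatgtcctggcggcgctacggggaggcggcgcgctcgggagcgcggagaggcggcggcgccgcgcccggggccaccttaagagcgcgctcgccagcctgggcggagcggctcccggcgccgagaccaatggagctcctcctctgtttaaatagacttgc
Ccnd3: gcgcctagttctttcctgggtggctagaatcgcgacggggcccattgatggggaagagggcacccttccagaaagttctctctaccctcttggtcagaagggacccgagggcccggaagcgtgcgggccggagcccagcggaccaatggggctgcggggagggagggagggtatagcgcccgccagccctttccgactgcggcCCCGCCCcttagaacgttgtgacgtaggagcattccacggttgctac
Cdk4: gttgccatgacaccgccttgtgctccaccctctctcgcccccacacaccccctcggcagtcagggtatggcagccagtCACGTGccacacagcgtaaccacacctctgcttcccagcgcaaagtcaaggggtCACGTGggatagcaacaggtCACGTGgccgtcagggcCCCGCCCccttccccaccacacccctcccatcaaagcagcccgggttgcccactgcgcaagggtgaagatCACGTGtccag

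Several motif spellings were searched on both strands of windows from 250 bases before to 50 bases after a start: the E2F sites TTTCCCGC and TTTGGCGC, the E-box, the STAT site TTCNNNGAA, which is its own complement in these letters as is the E-box, the GFI1 site AATCACNGC and the GC box. The E-box was present 4 times in the Cdk4 window, all before the start, 1 time in that of Cdk6 and 1 time in the downstream window of Cdkn2c. It occurs in 7.15% of the 32851 windows of the table. The Ccnd3 window shown held the GC box, which 25.6% of windows hold. So did the upstream Ccnd3 window and windows of Cdk4, Cdkn1a, Cdkn2c and Cdkn2d. The Cdkn1b window held none of the motifs. No window of a member held an E2F, STAT or GFI1 spelling. Among all windows, 1.07% and 0.514% held the E2F spellings, 8.30% the STAT spelling and 0.919% the GFI1 spelling. A match is a description of the letters and not a bound site.

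Values came in steps of a fixed size within each library, and library totals were even, at 8260995 to 8528400 steps. All 10 myeloid markers were present in every treatment, with summed values of 23099 to 24085 in DMSO, 27105 to 33422 after ruxolitinib, 22925 to 24038 after GSK-LSD1 and 29630 to 34518 after the combination. These sums were mostly Cebpa and Mpo, and single markers moved both ways. After GSK-LSD1, 3 were called higher, at log2 changes of 1.16 (Kit), 0.53 (Itgam) and 0.49 (Ptprc). Another 3 were called lower, at -0.82 (Elane), -0.73 (Prtn3) and -0.69 (Ctsg). Of the lymphoid markers, Ms4a1, Pax5, Cd4 and Ncr1 were listed at 0 in all 12 libraries, as were the haemoglobin genes Hba-a1, Hba-a2, Hbb-bs and Hbb-bt of red cells. Summed macrophage markers were 136 to 183 in DMSO, 140 to 167 after ruxolitinib, 249 to 285 after GSK-LSD1 and 291 to 332 after the combination, with C1qb at 0 throughout. They were highest in the treatments in which Cdkn1b was highest, as the myeloid sums were in those in which Ccnd2 was lowest, and their part in these results was not tested. Summed megakaryocyte markers were 1868 to 2390, mostly Itga2b, with a mean of 1958 over the 12 libraries where Pf4 had 69.5. Stromal and endothelial markers summed to 3196 to 3643 in the libraries without GSK-LSD1 and 4044 to 4378 in those with it, mostly Pecam1, with Cxcl12, Cdh5 and Kdr at 0. Pdgfrb rose by 0.83 after GSK-LSD1 and 0.92 after the combination, Pecam1 by 0.27 and 0.34, and Col1a1 by 0.73 after GSK-LSD1 on the log2 scale. These sums too separate the libraries as Cdkn1b and Ccnd3 do, and their part in those results was not tested. In such bulk samples, fewer cells of a type and less RNA per cell cannot be told apart.

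Ruxolitinib replicate 2 and combination replicate 3 stood apart from the rest of their groups, at -19.7 and -17.3 on the second principal component, where the other libraries of these groups lay between -4.64 and 0.121. Their deviations from the group mean followed the GC content of transcripts, with a Spearman correlation of 0.43 and 0.573 across 11053 genes, which are not independent replicates. The members show the same order in combination replicate 3. There, Ccnd3, Cdk4, Cdkn1a, Cdkn2c and Cdkn2d, with 53.3% to 58.0% GC, lay 0.04 to 0.14 above the group mean on the log2 scale. Ccnd1, Ccnd2, Cdk6, Cdkn1b and Rb1, with 41.2% to 50.9% GC, lay below it, at -0.22 to -0.01. In ruxolitinib replicate 2 the members did not follow that order, since Cdk6 and Cdkn1b lay above the mean and Cdkn2c and Cdkn2d below it. Results that rest on ruxolitinib replicate 2 or combination replicate 3 are given with and without them. Other libraries of these groups followed GC content in the opposite direction: ruxolitinib replicate 1 (-0.403) and combination replicates 1 (-0.437) and 2 (-0.362). Deviations within a group are tied through its mean. Log2 changes over these genes also correlated with GC content, at 0.415 for ruxolitinib, 0.11 for GSK-LSD1 and 0.205 for the combination against DMSO. The correlation was 0.26 for the combination against GSK-LSD1 and -0.14 for GSK-LSD1 against ruxolitinib.

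**Figure D1:**
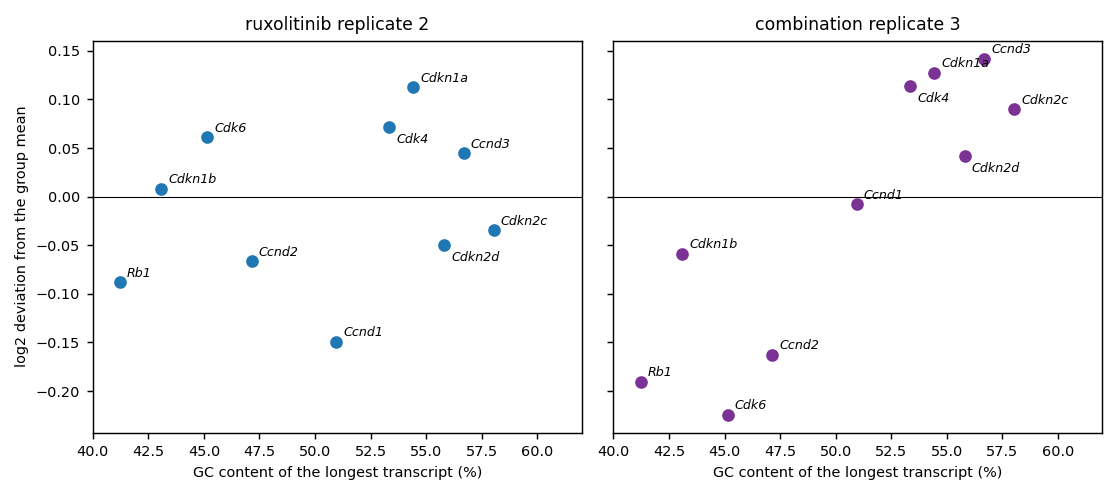
Deviation of each of the 10 genes from its group mean (log2 scale, vertical axis) against the GC content of its longest transcript in percent (horizontal axis), for ruxolitinib replicate 2 (left) and combination replicate 3 (right). In combination replicate 3 the 5 genes above 53% GC lie above the mean, with Ccnd3 at 0.14, and the other 5 lie below it, with Cdk6 at -0.22.

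Changes in the G1 genes were small and came mainly with LSD1 inhibition. Cyclin D3 RNA fell and p27 RNA rose after GSK-LSD1, with or without ruxolitinib, and p18 RNA rose when the combination was set against DMSO or against ruxolitinib. Fits used limma on log2 of the value plus 1, and a gene passed at a Benjamini-Hochberg adjusted p under 0.05 over all 11484 genes. Treatment as a whole (F-test) changed 5 members: Ccnd2, Ccnd3, Cdkn1a, Cdkn1b and Cdkn2c. That is 5 of 10 where 42.8% of all genes tested passed, so the members were called about as often as genes in general.

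Ruxolitinib alone against DMSO, which asks what JAK inhibition changes, passed none of the 10 members, against 1.63% of all genes (limma). At an unadjusted p under 0.05, 1 member (Ccnd2) and 2012 of all genes differed. GSK-LSD1 against DMSO, the question of what LSD1 inhibition changes, gave 2 of 10 (32.5% of all genes), with Cdkn1b higher (17.0% of genes were higher) and Ccnd3 lower (15.5% were lower). The combination against DMSO gave 4 of 10 (42.3%), Cdkn1b and Cdkn2c higher (20.5%) and Ccnd3 and Ccnd2 lower (21.8%). Without ruxolitinib replicate 2 and combination replicate 3, these counts were 0, 4 and 6, where 2.76%, 42.5% and 45.7% of all genes in that fit passed. The median log2 change of the 10 members was -0.03 after ruxolitinib, 0.07 after GSK-LSD1 and -0.04 after the combination, where the median of all genes was -0.00, -0.00 and -0.01.

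Adding GSK-LSD1 to ruxolitinib raised Cdkn1b and Cdkn2c (16.0% of all genes were higher) and lowered Ccnd3 (15.6% lower). Adding ruxolitinib to GSK-LSD1 passed none of the 10 members, where 1.40% of genes passed (limma), although 3 members (Ccnd2, Cdkn1a and Cdkn2c) and 1407 of all genes had an unadjusted p under 0.05. Set directly against ruxolitinib, GSK-LSD1 left Ccnd2, Cdkn1a and Cdkn1b higher (13.6% of genes higher) and Ccnd3 lower (11.8% lower). The interaction, which tests whether the combination departs from the sum of what each drug does alone, in log2 units, passed for none of the 10 and for 0.00871% of all genes, a single gene. No member had an unadjusted interaction p under 0.05, against 534 of all genes. These comparisons share libraries, so their results are not independent of each other.

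**Figure D2:**
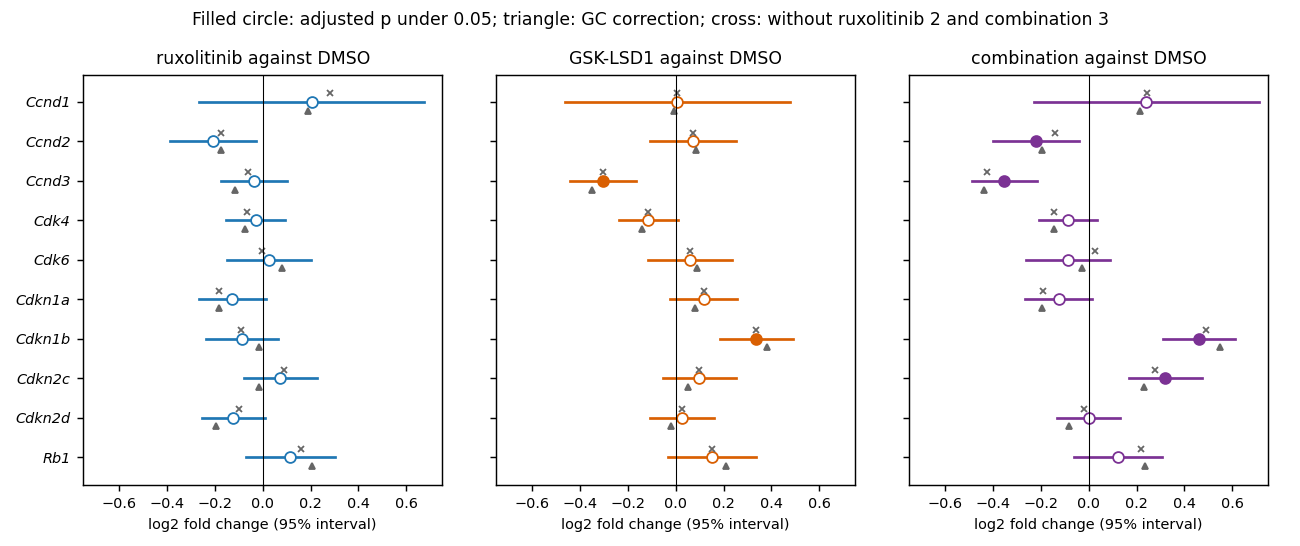
Log2 fold change of each gene (circle) with its 95% interval in each treatment against DMSO, filled where the adjusted p is under 0.05, with the value after a correction for GC content (triangle) and without ruxolitinib replicate 2 and combination replicate 3 (cross). Ccnd3 lies at -0.30 and -0.35 and Cdkn1b at 0.34 and 0.46 after GSK-LSD1 and after the combination, while no circle is filled after ruxolitinib.

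Ccnd3, which encodes cyclin D3 (chromosome 17, 47505051 to 47599691, plus strand, GRCm38, GENCODE vM21), was the main D-type cyclin of these cells. Its normalised read counts were 2708, 2443 and 2588 in DMSO and 2438, 2591 and 2508 after ruxolitinib. They were 2246, 2002 and 2025 after GSK-LSD1 and 1909, 1935 and 2229 after the combination. All 6 libraries with GSK-LSD1 (1909 to 2246) thus lay below all 6 without it (2438 to 2708), a separation that 10.1% of tested genes showed in this direction. The fall after GSK-LSD1 was -0.30 ± 0.07 (log2 fold change ± SE, adjusted p = 0.00135), from 2580 ± 133 to 2091 ± 135 (mean ± SD, n = 3 each).

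After the combination Ccnd3 was at -0.35 ± 0.07 (adjusted p = 0.000214), and at -0.31 ± 0.07 against ruxolitinib (adjusted p = 0.000963). Ruxolitinib alone gave -0.04, with a 95% interval of -0.17 to 0.10, and the interaction was -0.01 (-0.21 to 0.18). The calls for Ccnd3 after GSK-LSD1 and after the combination held in all 25 alternative fits, with log2 changes of -0.36 to -0.27 and -0.46 to -0.30. Exons of Bysl, a gene of ribosome assembly on the other strand, share 361 bases (4.11%) of the Ccnd3 exons. Bysl fell too, by 0.44 after GSK-LSD1 and by 0.52 after the combination, and since the strandedness of the counts is not known, how its reads enter the Ccnd3 value was not tested.

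Ccnd2 encodes cyclin D2 (chromosome 6, 127125162 to 127152193, minus strand), a D-type cyclin that cytokine receptors can induce through STAT5. DMSO libraries had 487, 420 and 452 normalised read counts, and ruxolitinib libraries 391, 374 and 411. After GSK-LSD1 the values were 523, 459 and 449, and after the combination 408, 412 and 346. Here the line ran along the other drug: the 6 libraries with ruxolitinib (346 to 412) all lay below the 6 without it (420 to 523), which 0.453% of tested genes did. The single comparisons were nevertheless at the edge of the test.

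For Ccnd2, ruxolitinib against DMSO gave -0.21 ± 0.09 (95% interval -0.39 to -0.03, adjusted p = 0.22), which did not pass. The combination against DMSO gave -0.22 ± 0.09 (adjusted p = 0.0438), which no longer passed when 1 of 6 libraries was left out: DMSO replicate 1 (adjusted p = 0.189) or 3 (0.0932), ruxolitinib replicate 1 (0.0502), GSK-LSD1 replicate 2 (0.0532) or 3 (0.0506), or combination replicate 3 (0.198, with a log2 change of -0.14). It was also lost with no filter on low values (0.0621), quantile normalisation (0.0638), no variance trend (0.0754) and only the 2 treatments in the fit (0.0546). GSK-LSD1 stood 0.28 ± 0.09 above ruxolitinib (adjusted p = 0.0211), a difference lost without ruxolitinib replicate 2 (0.0687) or GSK-LSD1 replicate 1 (0.111). The antisense gene 9330179D12Rik, which shares 368 bases of exon with Ccnd2, was at 0 to 1.99 in all libraries, and Gm43126, which shares 372 bases, was not analysed here.

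Ccnd1, the cyclin D1 gene (chromosome 7, 144929931 to 144939925, minus strand), was close to the limit for testing. Its values were 19.9, 27.0 and 21.8 in DMSO, 27.9, 23.6 and 27.7 after ruxolitinib, 23.0, 25.9 and 19.9 after GSK-LSD1, and 21.8, 33.5 and 26.9 after the combination. All 4 groups overlapped. Exons of LTO1 on the other strand share 1100 bases (23.4%) of the Ccnd1 exons, so reads of these genes cannot be told apart. Its largest log2 difference from DMSO, 0.24 after the combination, had an interval of -0.23 to 0.71, so that at these counts a change of the size seen in Ccnd3 could not have been detected reliably.

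**Figure D3:**
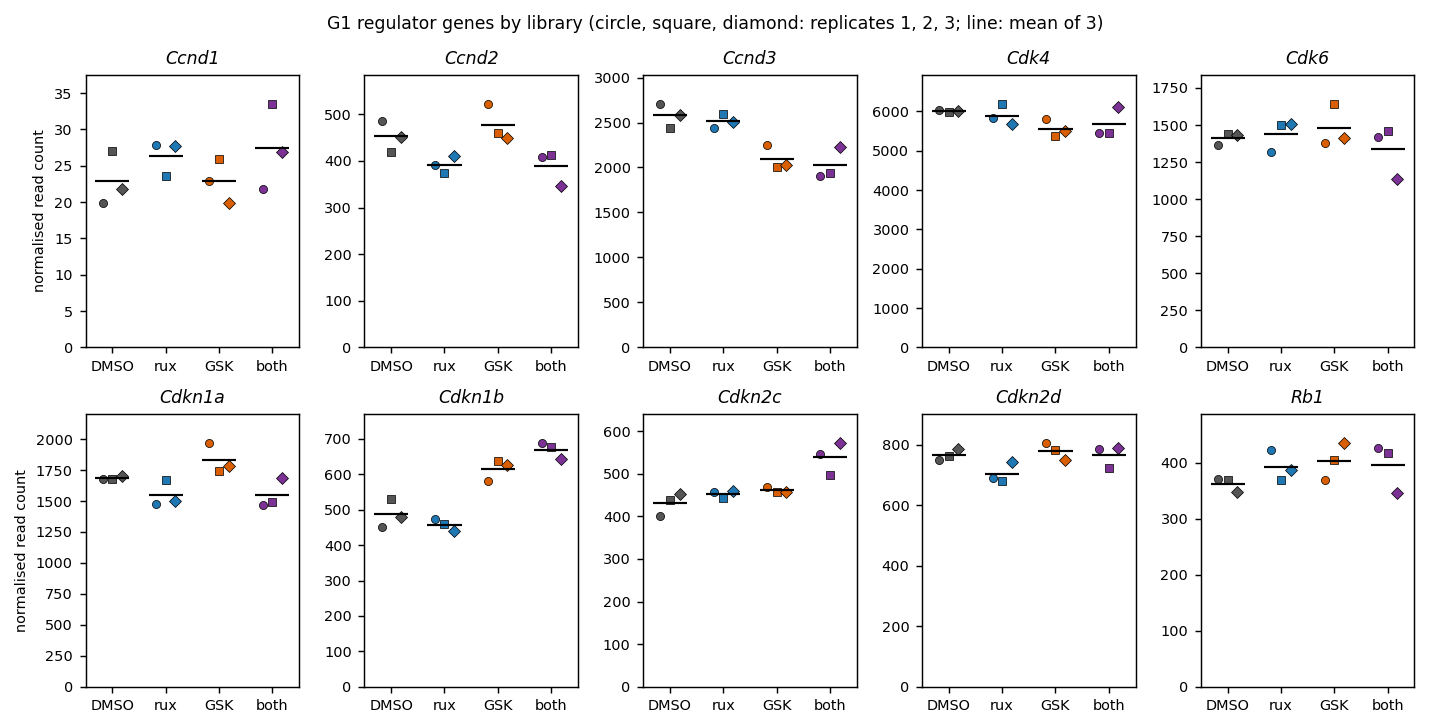
Normalised read counts (vertical axis, from 0) of each of the 10 genes in the 12 libraries, grouped by treatment (rux: ruxolitinib, GSK: GSK-LSD1, both: combination), with a line at the mean of 3. Ccnd3 and Cdkn1b separate libraries with GSK-LSD1 from those without, Ccnd2 separates libraries with ruxolitinib from those without, and Cdkn2c is highest in the 3 combination libraries (496 to 572).

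Cdk4 encodes the main catalytic partner of the D cyclins (chromosome 10, 127063534 to 127067920, plus strand), and its gene, with the E-boxes shown above, is known as a target of MYC. It was high and even: 6033, 5988 and 6013 in DMSO, 5818, 6191 and 5670 after ruxolitinib, 5810, 5368 and 5499 after GSK-LSD1, and 5436, 5439 and 6122 after the combination. All 3 GSK-LSD1 libraries were below all 3 DMSO libraries, as in 26.5% of tested genes, but the difference of -0.11 (95% interval -0.24 to 0.01) did not pass (adjusted p = 0.147). Combination replicate 3 was the highest of its group by a wide margin, and all treatments together gave no F-test call (adjusted p = 0.313).

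The calls for Cdk4 depended on that library, on GC content and on which libraries were in the fit. GSK-LSD1 against DMSO, still at -0.11, passed without both libraries that stood apart (adjusted p = 0.0218). It also passed with only the 2 treatments in the fit (adjusted p = 0.0157). Without combination replicate 3 the combination was at -0.14 against DMSO and passed (adjusted p = 0.0415), and after the GC correction both GSK-LSD1 (-0.14, adjusted p = 0.0143) and the combination (-0.14, adjusted p = 0.00981) passed. Tspan31 on the other strand shares 641 bases (19.7%) of the Cdk4 exons and did not follow it, with log2 changes of 0.09 after GSK-LSD1 (adjusted p = 0.332) and 0.19 after the combination (adjusted p = 0.0238).

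Cdk6, the second D cyclin kinase and a gene of haematopoietic progenitors (chromosome 5, 3341485 to 3531008, plus strand), had 1365, 1438 and 1435 in DMSO and 1316, 1502 and 1509 after ruxolitinib. The values were 1379, 1643 and 1410 after GSK-LSD1 and 1419, 1457 and 1139 after the combination. The groups overlapped, combination replicate 3 was the lowest of all 12 libraries, and the combination was at -0.09 against DMSO (95% interval -0.26 to 0.09). Gm17590 on the other strand shares 368 bases (2.63%) of the Cdk6 exons. Per length of exon, Cdk4 made up 94.8% ± 0.2 of the sum of Cdk4 and Cdk6 in DMSO, 94.6% ± 0.4 after ruxolitinib, 94.2% ± 0.7 after GSK-LSD1 and 94.8% ± 1.0 after the combination (SD, n = 3 each).

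Cdkn1b, which encodes p27 (chromosome 6, 134920401 to 134925513, plus strand), showed the largest change of the 10 members. Its normalised read counts were 452, 531 and 479 in DMSO and 473, 460 and 441 after ruxolitinib. They were 580, 638 and 627 after GSK-LSD1 and 688, 678 and 642 after the combination. Every library with GSK-LSD1 (580 to 688) exceeded every library without it (441 to 531), as did 11.3% of tested genes, and the 3 combination libraries lay above the 3 with GSK-LSD1 alone, as in 8.81% of genes.

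The rise of Cdkn1b was 0.34 ± 0.07 after GSK-LSD1 (1.26-fold, adjusted p = 0.00125), from 487 ± 40.3 to 615 ± 30.6. It was 0.46 ± 0.07 after the combination (1.38-fold, adjusted p = 3.27e-05), at 669.5 ± 24.0, and 0.55 ± 0.07 against ruxolitinib (1.46-fold, adjusted p = 6.61e-06). These 3 calls held in all 25 alternative fits. Ruxolitinib alone was at -0.09 (95% interval -0.24 to 0.06). Although the combination lay above GSK-LSD1 alone, that difference of 0.12 (-0.03 to 0.27) did not pass (adjusted p = 0.527), and the interaction was 0.21 (-0.00 to 0.42, adjusted p = 1.00). No other annotated gene overlaps the exons of Cdkn1b.

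Cdkn1a encodes p21 (chromosome 17, 29090976 to 29100727, plus strand), an inhibitor best known as a target of p53. DMSO libraries were tight at 1676, 1680 and 1702 normalised read counts, and ruxolitinib libraries had 1473, 1670 and 1497. GSK-LSD1 libraries had 1968, 1743 and 1781, and combination libraries 1466, 1492 and 1689. GSK-LSD1 alone lay above DMSO without overlap, as in 24.4% of tested genes, ruxolitinib alone lay below it without overlap, as in 12.8%, and the combination was at the level of ruxolitinib alone.

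The other-strand gene AC167363.2 shares 273 bases (7.68%) of the Cdkn1a exons. Neither single drug passed against DMSO for Cdkn1a, at -0.13 (95% interval -0.27 to 0.01) for ruxolitinib and 0.12 (-0.02 to 0.26) for GSK-LSD1. At the same 0.12, GSK-LSD1 passed without both libraries that stood apart (adjusted p = 0.0468). It also passed with only the 2 treatments in the fit (adjusted p = 0.0427). The drugs differed from each other by 0.24 ± 0.07, GSK-LSD1 being higher (adjusted p = 0.0105), a call lost without GSK-LSD1 replicate 1 (adjusted p = 0.0676). The combination was 0.24 ± 0.07 below GSK-LSD1 alone (-0.24, adjusted p = 0.0815), which passed without combination replicate 3 (-0.31, adjusted p = 0.0115) or ruxolitinib replicate 2 (adjusted p = 0.0346) and after the GC correction (-0.28, adjusted p = 0.0019). Against DMSO, the combination was at -0.13 (adjusted p = 0.14) and passed without combination replicate 3 (-0.19, adjusted p = 0.0221). The combination also passed without both libraries that stood apart (-0.19, adjusted p = 0.00387) and after the GC correction (-0.19, adjusted p = 0.00297). Per length of exon the ratio of Cdkn1a to Cdkn1b was 4.45 ± 0.36 in DMSO, 4.33 ± 0.33 after ruxolitinib, 3.83 ± 0.45 after GSK-LSD1 and 2.97 ± 0.35 after the combination.

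Of the INK4 inhibitors, Cdkn2c (p18; chromosome 4, 109660876 to 109667189, minus strand) was highest after the combination. It stood at 401, 439 and 452 in DMSO, 457, 442 and 460 after ruxolitinib, 469, 457 and 457 after GSK-LSD1, and 547, 496 and 572 after the combination. The 3 combination libraries were above the other 9, whose highest value was 469, a separation that 4.80% of tested genes showed. The combination rose by 0.32 ± 0.07 over DMSO (1.25-fold, adjusted p = 0.00136), from 431 ± 26.2 to 538 ± 38.5, a call held in all 25 alternative fits.

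Over ruxolitinib the combination raised Cdkn2c by 0.25 ± 0.07 (adjusted p = 0.0135), a call lost without both libraries that stood apart (0.18, adjusted p = 0.0758) or with only the 2 treatments in the fit (adjusted p = 0.052). Over GSK-LSD1 the difference was 0.22 (95% interval 0.07 to 0.37, adjusted p = 0.182), and the single drugs were at 0.07 (ruxolitinib) and 0.10 (GSK-LSD1) against DMSO, neither past the test. The interaction of 0.15 (-0.07 to 0.36) did not pass, so the data do not show that Cdkn2c departs from the sum of the single effects.

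Cdkn2d (p19; chromosome 9, 21288410 to 21291407, minus strand) had 750, 761 and 785 in DMSO, 690, 679 and 741 after ruxolitinib, 805, 781 and 751 after GSK-LSD1, and 787, 723 and 788 after the combination. Ruxolitinib libraries lay below those of DMSO without overlap, as in 12.8% of tested genes, but the difference of -0.12 (95% interval -0.26 to 0.01) did not pass (adjusted p = 0.333). The largest contrast, GSK-LSD1 above ruxolitinib by 0.15 (adjusted p = 0.0953), passed only after the GC correction (0.17, adjusted p = 0.0323, and 0.0402 with the replicate block as well).

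Rb1, whose protein the D cyclin kinases phosphorylate (chromosome 14, 73183673 to 73325822, minus strand), had 370, 368 and 348 in DMSO and 423, 369 and 386 after ruxolitinib. The values were 370, 404 and 435 after GSK-LSD1 and 425, 416 and 345 after the combination. All groups overlapped with DMSO, and the F-test did not pass (adjusted p = 0.457). With combination replicate 3 left out, the combination was at 0.22 and passed (adjusted p = 0.0468), and after the GC correction GSK-LSD1 (0.21, adjusted p = 0.0193) and the combination (0.23, adjusted p = 0.00757) passed. Rcbtb2 shares 488 bases (8.11%) of the Rb1 exons on the other strand and passed in no treatment against DMSO. Lpar6, which shares 408 bases (6.78%), rose by 0.56 after GSK-LSD1 and 0.52 after the combination (adjusted p = 0.00016 and 0.00023), and the part of its reads in the Rb1 value was not tested.

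Levels can be compared between genes per kilobase of exon. Averaged over the 12 libraries, Cdk4 was highest at 1780 normalised read counts per kilobase of annotated exon, followed by Cdkn2d at 479, Cdkn1a at 465, Ccnd3 at 262, Cdkn2c at 175, Cdkn1b at 122, Cdk6 at 101, Rb1 at 64.6, Ccnd2 at 45.4 and Ccnd1 at 5.29. The 12-library ranges of Cdkn2d and Cdkn1a overlapped, as did those of Cdkn2c and Cdkn1b and those of Cdkn1b and Cdk6, and all other neighbours were apart. Which transcripts these cells use is not known, so the lengths, all annotated exons merged, are approximate.

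On that scale cyclin D3 made up 84.7% ± 0.1 of the summed D cyclins in DMSO and 85.8% ± 0.9 after ruxolitinib, 81.1% ± 0.5 after GSK-LSD1 and 82.9% ± 2.4 after the combination (SD, n = 3 each). The sum itself was 347 ± 17.9 per kilobase in DMSO, 334 ± 7.52 after ruxolitinib, 294 ± 19.5 after GSK-LSD1 and 278 ± 16.4 after the combination. The level of Cdkn1b relative to Ccnd3 went from 0.366 ± 0.049 in DMSO to 0.352 ± 0.019, 0.570 ± 0.063 and 0.642 ± 0.075 in the same order. These sums and ratios are descriptions and were not tested.

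**Figure D4:**
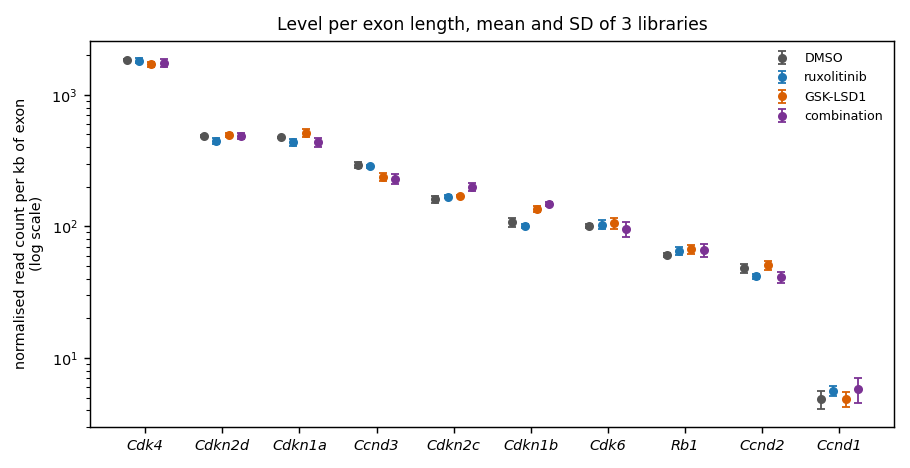
Normalised read counts per kilobase of exon (log scale) for the 10 genes in order of their mean, with a point for each treatment at the mean of 3 libraries and bars of 1 SD. Cdk4 leads at 1780 and Ccnd1 is lowest at 5.29, and differences between genes are much wider than those between treatments.

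The next steps of the pathway were read in lists of named genes, beside the shares of all genes given above. Of 8 other cyclins, kinases and pocket proteins of the G1/S step, none passed after ruxolitinib, 2 were higher and 4 lower after GSK-LSD1, and 2 were higher and 5 lower after the combination. Ccne1 and Ccne2, the E cyclins that drive CDK2, fell by 0.30 and 0.41 after GSK-LSD1 and by 0.44 and 0.55 after the combination. Ccng2, an atypical cyclin linked to cell cycle arrest, rose by 0.98 and 1.07, and Rbl2, the RB relative p130 of resting cells, by 0.31 and 0.30. Without both libraries that stood apart, 2 were higher and 3 lower after the combination. The median log2 change of the 8 was -0.11 after ruxolitinib, -0.11 after GSK-LSD1 and -0.21 after the combination.

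Of 10 E2F and DP factors, 1 rose and 4 fell after GSK-LSD1 and 2 rose and 6 fell after the combination, with none called after ruxolitinib. After the combination E2f4 fell by 0.42, E2f1 by 0.34, Tfdp1, a dimer partner of the E2Fs, by 0.29 and E2f3 by 0.25, and the 2 that rose, named after their values were seen, were E2f2 and Tfdp2 (both by 0.23). The median of the 10 was -0.11 after GSK-LSD1 and -0.22 after the combination. Genes that E2F turns on at S phase entry were mostly lower: 23 of 29 fell after GSK-LSD1 and 27 of 29 after the combination, with none higher, and 1 fell after ruxolitinib (Rrm2, the ribonucleotide reductase subunit, by 0.28). Their median log2 change was -0.26 after GSK-LSD1, -0.34 after the combination and -0.09 after ruxolitinib. The largest falls after the combination were those of Orc1 (-0.60), a subunit of the origin recognition complex, Dut (-0.55) and Ung (-0.53), which keep uracil out of DNA, and Cdc6 (-0.50), which loads the replicative helicase.

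Without both libraries that stood apart, 28 of the 29 E2F targets fell after GSK-LSD1 and 28 after the combination. Adding GSK-LSD1 to ruxolitinib lowered 25 of them, whereas adding ruxolitinib to GSK-LSD1 lowered 1, Orc1 at -0.41. Of 5 cyclins and kinases of S, G2 and M phase tested, 3 fell after either treatment with GSK-LSD1: Ccna2, Ccnb1 and Cdk1, by 0.27, 0.23 and 0.25 after the combination. Of 8 genes of the CDK-activating kinase, the CDC25 phosphatases and their opponents WEE1 and PKMYT1, 1 rose and 3 fell after GSK-LSD1. After the combination Cdc25a fell by 0.49 and Ccnh by 0.36, and Cdc25b rose by 0.21.

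**Figure D5:**
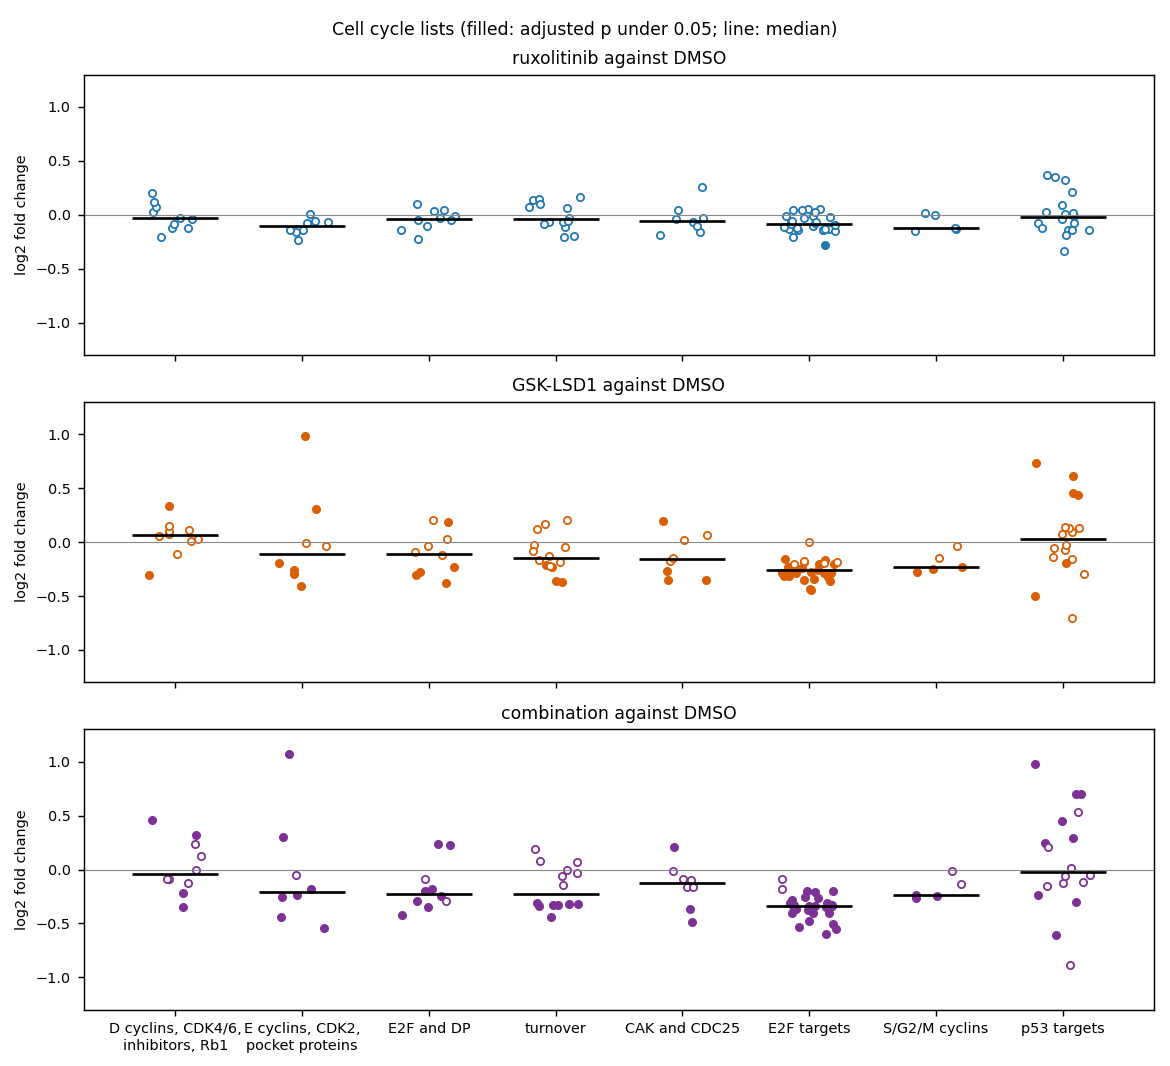
Log2 fold change (vertical axis) against DMSO of each tested gene of 8 cell cycle lists, in 1 panel per treatment, filled where the adjusted p is under 0.05, with a line at the list median. E2F targets lie almost wholly below 0 after GSK-LSD1 (median -0.26) and after the combination (median -0.34), while the 10 G1 genes spread to both sides.

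Genes for the breakdown of cyclins and CDK inhibitors include the ubiquitin ligase that acts on p27. Of 14 such genes none was called after ruxolitinib and none rose, while 4 fell after GSK-LSD1 and 7 after the combination. After the combination Rbx1 fell by 0.44, Skp2, which marks p27 for destruction, by 0.33, and Cdc34, a ubiquitin-conjugating enzyme, by 0.32. Without both libraries that stood apart, 2 rose and 6 fell after GSK-LSD1 and 1 rose and 7 fell after the combination. The median of the 14 was -0.15 after GSK-LSD1 and -0.22 after the combination. The p53 targets gave no single direction: of 18 tested, 4 rose and 2 fell after GSK-LSD1 and 6 rose and 3 fell after the combination, and without the 2 libraries 6 rose and 6 fell after the combination. Among them Trp53inp1 rose by 0.98, Btg2 by 0.70, Bbc3, which encodes the BH3 protein PUMA, by 0.70, and Aen fell by 0.61 after the combination.

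Regulators with known links to these genes were also read. Myc fell by 0.35 after GSK-LSD1 and by 0.32 after the combination, and was at 0.03 after ruxolitinib. Foxo1, of the FOXO factors that can induce Cdkn1b, rose by 0.52 and 0.44 after GSK-LSD1 and the combination, Stat5b by 0.35 and 0.43, and Stat3 by 0.20 and 0.20. Gfi1 and Gfi1b, repressors that work with LSD1, rose by 1.86 and 2.39 after GSK-LSD1 and by 2.13 and 2.63 after the combination. Gfi1b alone of these genes passed after ruxolitinib (0.32, adjusted p = 0.0486). After the combination Trp53 was at 0.03, Foxo3 at 0.10, Stat5a at 0.07, Kdm1a, which encodes LSD1, at -0.13, Csf3r at 0.19 and Cebpa at 0.04, none past the test in any treatment against DMSO.

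Genes whose log2 values followed a member most closely over the 12 libraries were sought among tested genes with a mean of at least 100, as a description, since all values share libraries and treatments. Ccnd3 was most like Bop1 (Pearson r = 0.979), Ydjc (0.977) and Lsm2 (0.976), of which Bop1 serves ribosome assembly and Lsm2 RNA processing. Cdkn1b was most like Arhgap25 (0.985), Fam21 (0.977) and Tmem55a (0.976). For Cdkn2c the closest were Parp3 (0.926), Prkcd (0.907) and Ckap4 (0.902), for Ccnd2 Cbx3 (0.932), Rabep1 (0.890) and Ganab (0.886), and for Cdkn1a Igsf8 (0.910), Slc12a7 (0.859) and Nek6 (0.857). Links were tighter for Ccnd3 and Cdkn1b, which separate the libraries by GSK-LSD1, than for the other 3 members.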

How the data were processed

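Total RNA of 12 libraries was sequenced, 3 per treatment. The deposited table holds a signal per gene, labelled as normalised read counts. From the steps described below, the values read as counts of reads per gene scaled with 1 factor for each library, with 1e-05 added. Per the submitters' processing notes, STAR, DESeq2 and the builds mm10 and GRCm38 were used. Their versions and roles, the annotation, the strandedness and filters are not given in the sources used here. With the constant taken off, all values lay within 0.01 of whole multiples of a step (0.9865 to 1.027) per library. Whole reads were not taken as recovered, so count tests were not run.

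Genes with a mean of at least 10 were fitted with limma 3.58.1 (R 4.3.3) on log2(value + 1), a scale that understates changes of low genes, with 1 mean per treatment, a variance trend and 8 residual degrees of freedom. Benjamini-Hochberg adjustment ran over all 11484 genes, and the procedure was tested on simulated data. Lengths, positions and GC content come from GENCODE vM21 (GRCm38), matched by symbol. The strandedness of the counting is not known, so genes whose exons overlap a member on the other strand are named.

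The members and lists were chosen with earlier results of these data known. The text names all 10 members, and from each list genes with the largest called changes (up to 4 after the combination, 2 elsewhere), 12 regulators and the 3 genes most correlated with each member that passed the F-test. The alternatives, listed in the closing section, included other pseudocounts, filters, scalings (TMM factors computed in R, and quantile normalisation), a GC correction, a replicate block and leaving out libraries. A value of 1 gene that this rule names is not reported here.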

Additional observations from a re-analysis of the deposited data

How the results depend on the processing

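The alternatives were another pseudocount (0.25 or 5), a minimum mean of 50 or none, a rescaling by TMM factors or quantiles, a GC correction, the replicate block with and without it, no variance trend, only the 2 treatments compared, each library left out, and both libraries that stood apart left out. That last one together with the GC correction was chosen after seeing the data. Of 1733 single log2 changes of the members, 18 lost and 34 gained their call, and none that was called reversed. No scaling moved the median of all genes by over 0.1.

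Members called after GSK-LSD1 were 2, and 4 with the GC correction, with it and the block, with only the 2 treatments, and without both libraries apart, with or without the GC correction, fits in which 36.1% to 43.4% of all genes passed. After the combination there were 4, and 7 with the GC correction, with or without the block (44.1% of all genes with it and 45.3% without). It was 6 without combination replicate 3 (40.3%) or both libraries apart (45.7%). The count was 3 with no filter, quantile normalisation, no variance trend, only the 2 treatments, or 1 of 5 single libraries left out (27.2% to 42.2%). Ruxolitinib had 0, and 1 (Cdkn1a, lower) without both libraries and with the GC correction, where 2.48% of all genes passed. The combination against GSK-LSD1 had 0, and 1 with the GC correction, with it and the block, and without both libraries apart in either form, and 0 to 1 with single libraries left out. In the fits with 1, 1.22% to 2.69% of all genes passed. GSK-LSD1 against ruxolitinib had 4 (25.4% of all genes), 5 with the GC correction (30.7%) or with it and the block (29.0%), and 3 with no variance trend (21.3%). It had 2 to 4 with single libraries left out, the lowest without GSK-LSD1 replicate 1 (22.7%). The F-test had 5, 8 with the GC correction, and 3 to 5 with single libraries left out, again lowest without GSK-LSD1 replicate 1. It had 7 with the GC correction and the block, and 4 with no variance trend. Without both libraries apart it had 6, or 7 with the GC correction as well. Over all genes, F-test calls ranged from 4132 to 5499 in these alternatives (4910, or 42.8%, as reported). The share of all genes is not given for each F-test fit, so these counts are not read as a trait of the members.

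Replicate numbers did not pair the libraries: of 18 same-numbered pairs, 1 correlated over 0.1 (range -0.148 to 0.15). The replicate block left the members' counts at 0 for ruxolitinib, 2 for GSK-LSD1 and 4 for the combination. In that fit 0.975%, 30.3% and 40.6% of all genes passed. Over all genes, calls ranged from 32 to 552 (187 as reported) for ruxolitinib, from 83 to 309 (161) for the combination against GSK-LSD1 and from 0 to 5 (1) for the interaction. Depth limits Ccnd1, at 19.9 to 33.5 normalised read counts.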

Other observations

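Of 4 CDK inhibitors outside the 10 genes, Cdkn2b and Cdkn1c were under the mean required for testing, and Cdkn2a and Cdkn3 were tested and passed in no comparison. Cdkn2b, the p15 gene, which lies beside Cdkn2a, had 15.0, 11.9 and 7.98 normalised read counts after GSK-LSD1, where DMSO libraries had 3.97, 4.0 and 4.95, ruxolitinib libraries 4.97, 2.05 and 2.96 and combination libraries 5.95, 2.96 and 3.98. Cdkn1c (p57) ranged from 1.03 to 9.94. Cdkn2a, the shared gene of p16 and ARF, was at 51.0 ± 2.4 in DMSO, 45.6 ± 6.9 after ruxolitinib, 53.5 ± 7.4 after GSK-LSD1 and 49.6 ± 6.2 after the combination. Cdkn3, a phosphatase that acts on CDKs, was at 87.9 ± 2.5, 96.5 ± 20.4, 90.4 ± 13.0 and 97.4 ± 7.5 in the same order.

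Within the INK4 class the ratio of Cdkn2c to Cdkn2d per length of exon was 0.314, 0.338 and 0.337 in DMSO, 0.388, 0.381 and 0.363 after ruxolitinib, 0.341, 0.343 and 0.356 after GSK-LSD1 and 0.407, 0.402 and 0.425 after the combination. All 6 libraries with ruxolitinib lay above the 6 without it, and all 3 combination libraries above the other 9. The margin was narrow for ruxolitinib (0.363 against 0.356), and neither gene passed after ruxolitinib alone. The ratio was looked at after the single genes were seen and was not tested, and how often other pairs of genes separate so was not computed.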
